A study of Drosophila melanogaster with 27 samples.

Results

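The comparison described here set stages of high ecdysone against stages of low ecdysone in whole *w1118* *Drosophila melanogaster*. The high group held the 9 arrays of late wandering larvae at -4 h, new prepupae at 0 h and late prepupae at 10 h relative to pupariation, and the low group held the 6 arrays of prepupae at 6 h and 8 h. These were 15 of the 27 arrays and 5 of the 9 stages of the series, with 3 arrays a stage, each hybridized with RNA pooled from 10 animals. All animals had the same genotype and none was treated with hormone. Stages were assigned to the high or low group from the described timing of the 2 hormone pulses. Hormone titers were not measured here, and hormone level cannot be told apart from developmental age or from the other events of these hours. The remaining 12 arrays, at -18 h, 2 h, 4 h and 12 h, did not enter the difference between the groups, but they entered the filter on low values and the shared estimate of spread.

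The steroid 20-hydroxyecdysone (20E) acts through a nuclear receptor made of the EcR and Usp proteins. The receptor switches on a small set of regulatory genes directly, and these pass the signal to larger sets of late genes. One pulse at the end of larval life triggers pupariation, in which the larva becomes immobile and its cuticle is tanned into the puparium. A second pulse in the late prepupa precedes head eversion. Between them the titer is low, and the competence factor *ftz-f1* and many prepupal cuticle genes are known to be expressed.

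The median intensity of an array ranged over 249.4 to 277.3 units. The first -4 h array stood apart from its 2 replicates, with a lowest correlation of 0.904 and a spread of 0.405 log2 units around the stage mean. Of the arrays outside the comparison, the second at -18 h deviated more, with 0.845 and 0.459. Tests covered 12854 of 13966 probe sets, those above a floor of 60.26 intensity units in all 3 arrays of at least 1 stage. Values under the floor were set to it. A difference is the mean log2 level of the 3 high stages minus that of the 2 low stages, and it was called at a Benjamini-Hochberg adjusted p under 0.1 in limma and at least 1.5-fold. The spread was that between arrays of 1 stage, so these p-values do not carry the variation between stages of 1 hormone class. A probe set was same-side when the means of all 3 high stages lay above, or all below, both low stage means. In bulk RNA of whole animals, fewer cells of a type and less RNA per cell cannot be told apart.

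Among called probe sets, more were lower than higher in the high stages. The pooled difference was called for 1094 probe sets (8.51% of those tested), 497 higher (3.87%) and 597 lower (4.64%). Of these, 654 (5.09%) were also same-side, 242 higher (1.88%) and 412 lower (3.21%). The other 255 probe sets called higher and 185 called lower had at least 1 high stage mean that was not beyond a low stage mean. The rule sets no minimum distance, so such a crossing can be small and is no test of a difference between stages. Without the first -4 h array, 518 were called higher and 578 lower, 250 and 402 of them same-side. Without the first 6 h array, 521 were called higher and 530 lower, so the excess of lower calls nearly vanished. Of the lower ones, 341 were then same-side. Over all tested probe sets, called or not, 23.3% were same-side, 1640 higher and 1352 lower, and the median difference was 0.03 log2 units. Among the 242 higher, 126 differed by at least 2-fold, 37 by at least 4-fold and 10 by at least 8-fold. Among the 412 lower, the counts were 217, 64 and 23. The 9 high and 6 low arrays did not overlap for 107 of the 242 (44.2%) and 226 of the 412 (54.9%), against 1.45% and 2.14% of all tested probe sets (3.59% either way). The same arrays chose these probe sets, so the last shares describe them and test nothing. Just inside the fold limit lay *Sik2* at 1.501-fold, *PGRP-LE* at 1.502-fold and *CG1440* at 1.504-fold, and just outside it *Sulf1* at 1.497-fold, *Snx21* at 1.499-fold and *Ca-alpha1D* at 1.499-fold.

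The 242 higher probe sets were not equally high in both pulses. The level at 10 h minus the mean of -4 h and 0 h was called for 1740 probe sets in all (13.5%), 795 higher (6.18%) and 945 lower (7.35%). Of the 242, 153 (63.2%) were lower at 10 h than in the late larval pulse, 15 were higher and 74 were not called. Their highest stage of the 3 was -4 h for 131, 0 h for 85 and 10 h for 26. Relative to the low stages, their median level at -4 h, 0 h and 10 h was 1.43, 1.17 and 0.38 log2 units. The medians of the 412 lower probe sets at these stages were -1.25, -1.07 and -0.82. Of the 412, 125 (30.3%) were higher at 10 h than in the late larval pulse, 11 were lower and 276 were not called. Within the late larval pulse, 0 h minus -4 h was called for 1026 probe sets (7.98%), 592 higher (4.61%) and 434 lower (3.38%). For 75 of the 242 (31.0%) it was lower and for 22 (9.09%) higher. That comparison leaned on single arrays, with 256 rather than 592 called higher without the first -4 h array. Within the low interval, 8 h minus 6 h was called for 676 probe sets (5.26%), and for 62 of the 412 it was lower and for 41 higher.

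**Figure D1:**
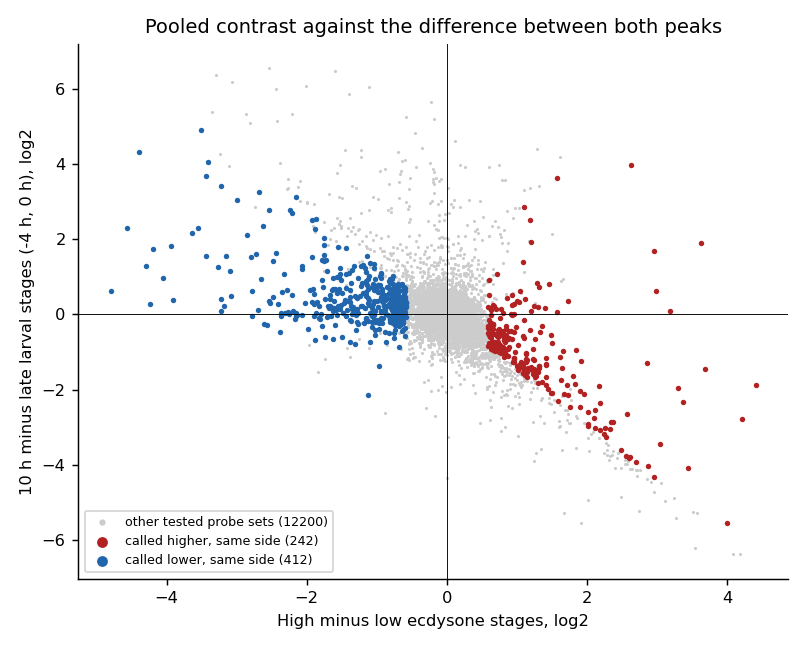
Each point is 1 of 12854 tested probe sets, with the pooled difference between high and low stages on the x axis and the difference between 10 h and the mean of -4 h and 0 h on the y axis, both in log2 units. The 242 probe sets called higher and same-side lie mostly below the horizontal line, and 153 of them were called lower at 10 h, while 125 of the 412 called lower and same-side were called higher at 10 h and 276 were not called.

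A distance between the closest high and low stage means separated small crossings from clear ones. It reached 1.5-fold for 32 of the 242 higher probe sets (13.2%) and 160 of the 412 lower ones (38.8%), and 2-fold for 14 and 72. The widest named gaps among the higher ones were 2.69 log2 units for *CG2444*, 2.11 for *CG13722*, 2.07 for *e* and 1.82 for *Cpr49Ac*. *Sox14* followed at 1.54. Among the lower ones the widest were 4.35 for *CG9411*, 3.27 for *Osi15*, 3.17 for *Osi6* and 2.98 for *Osi7*.

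The 12 arrays outside the comparison showed how the same probe sets behaved at other times. At -18 h, before the late larval pulse, 149 of the 242 higher probe sets (61.6%) already stood at or above their lowest high stage, and 70 (28.9%) stood at or below a low stage. Of the 149, 120 were lower at 10 h than in the late larval pulse, and of the 70, 23 were. For the lower probe sets, 326 of 412 (79.1%) were at -18 h already at or below their nearest high stage. At 12 h, 2 h after the last high stage, the median of the 242 was 0.34 log2 units above the low stages and that of the 412 was -0.93. At 4 h the medians were 0.19 and -0.36.

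**Figure D2:**
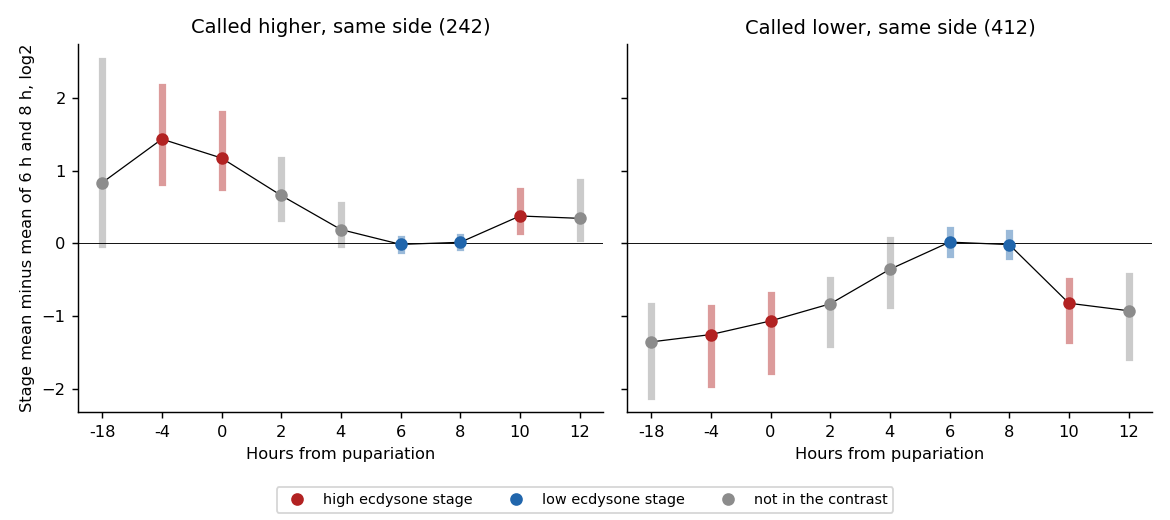
Points are medians and bars the middle 50% of the probe sets, as the stage mean minus the mean of 6 h and 8 h in log2 units, at each of the 9 stages (hours from pupariation), for the 242 higher and 412 lower same-side probe sets. Red marks high stages, blue low stages and gray stages outside the comparison. The higher set falls short at 10 h, with a median of 0.38, and the lower set has a median of -0.82 there.

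A contrast among those arrays alone set the 2 stages that follow a high stage by 2 h (2 h and 12 h) against -18 h and 4 h. It shared no array with the pooled comparison, although the spread came from the same fit. It was called for 1223 probe sets (9.51%), higher for 775 (6.03%) and lower for 448 (3.49%). Of the 242 higher probe sets, 60 (24.8%) were also higher in it and 78 (32.2%) were lower. Since -18 h is subtracted in this contrast, a high level at -18 h lowers it. The count called higher among all probe sets was 603 without the second -18 h array and 1025 without the first. Of the 412 lower probe sets, 63 (15.3%) were lower and 53 (12.9%) higher.

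Among regulators of the 20E cascade, 4 of 13 measured genes changed in the pooled comparison, 2 in each direction. Of all tested probe sets, 8.51% were called either way. The list held 18 genes. The early genes *Eip74EF* and *Eip75B*, and *Hr38*, *crol* and *Eip63F-1*, had no tested probe set that carried their symbol alone and were left out. *Eip78C*, an early nuclear receptor gene of the cascade, had 738, 1007 and 917 intensity units at -4 h, 999, 1158 and 904 at 0 h and 162, 168 and 155 at 10 h, against 118, 103 and 119 at 6 h and 134, 118 and 134 at 8 h. All 9 high arrays lay above all 6 low arrays, but the 10 h arrays only narrowly. The pooled difference was 4.35-fold (log2 2.12, SE 0.09, adjusted p 1.18e-14), and 10 h minus the late larval stages was -2.55 log2 units. *Hr39*, which encodes another nuclear receptor, had 144, 277 and 322 units at -4 h, 356, 323 and 304 at 0 h and 390.1, 286 and 336 at 10 h, against 178, 124 and 139.6 at 6 h and 181, 154 and 142 at 8 h. The difference between the pulses was not called, and 1 array, the first at -4 h, fell among the low arrays. The difference was 1.94-fold (log2 0.96, SE 0.17, adjusted p 1.84e-04).

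Both regulators that fell were at their peak in the low interval. *ftz-f1*, a nuclear receptor gene that provides competence for the prepupal pulse, had 4.99 to 24.6 units on the 6 late larval arrays, all under the floor, and 275, 233 and 269.8 at 10 h, against 712, 217 and 444 at 6 h and 1297, 1114 and 1297 at 8 h. The second 6 h array lay under the 10 h arrays, and the other 5 low arrays were above all high arrays. *Cyp18a1*, which encodes an enzyme that inactivates 20E, had 102, 152 and 112 units at -4 h, 73.5, 86.2 and 59.0 at 0 h and 324, 254 and 288 at 10 h, against 1046, 417 and 710.0 at 6 h and 870.2, 816 and 708 at 8 h. Here the groups did not overlap. The study listed *Cyp18a1* as induced by 20E in cultured larval organs, so its pooled direction in these whole animals was opposite to that response. On floored values *ftz-f1* was at least 7.26-fold lower and *Cyp18a1* was 5.40-fold lower (adjusted p 1.21e-10 and 3.14e-11). At 10 h both were above the late larval stages, by at least 2.10 log2 units for *ftz-f1* and by 1.62 for *Cyp18a1*.

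The other 9 measured cascade genes did not pass both limits. The receptor genes differed little between the groups, with log2 differences of 0.11 for *EcR* and -0.39 for *usp*, whose levels were near the floor. The differences were 0.46 for *br*, 0.49 for *Hr78*, 0.30 for *Hr4*, 0.50 for *Hr3*, 0.53 for *E23*, 0.41 for *Kr-h1* and 0.24 for *Eip93F*. At 10 h, *Hr3* differed by -1.42 and *Eip93F* by 1.10 log2 units from the late larval stages.

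Of the 7 regulators that the study had singled out as induced by 20E without new protein, all measured here, 3 were higher and same-side. *Sox14*, a transcription factor gene, had 2268, 2298 and 2210.0 units at -4 h, 2009.8, 2115 and 2217 at 0 h and 2976, 2529.9 and 2839.9 at 10 h, against 706, 669 and 814 at 6 h and 737, 675 and 679.9 at 8 h. Every high array exceeded every low array, and every 10 h array exceeded every late larval array. The level at 10 h was 0.35 log2 units above the late larval pulse (adjusted p 1.83e-03), short of the fold limit. The difference was 3.32-fold (log2 1.73, SE 0.06, adjusted p 3.24e-16). *brat*, which encodes a translational repressor, had 885, 1379.6 and 1057 units at -4 h, 1316, 1659.8 and 1181 at 0 h and 2199.9, 1621 and 1874 at 10 h, against 778, 566 and 593 at 6 h and 793, 747 and 651 at 8 h. It was the only one of the 3 called higher at 10 h than in the late larval pulse, by 0.62 log2 units, and the pooled difference was 2.07-fold (SE 0.14, adjusted p 4.99e-06). *CG11275* had 346 to 755 units on the late larval arrays and 279.6 to 325 at 10 h, against 111 to 129 at 6 h and 134 to 156 at 8 h, a 3.61-fold difference, and 10 h minus the late larval pulse was -0.95 log2 units. *Blimp-1*, *cbt* and *vri* passed the p limit but not 1.5-fold, with log2 differences of 0.53, 0.52 and 0.50, and *hry* was at -0.33. The wider list of 20E-induced, *EcR*-dependent genes of the study had 17 of 49 measured members higher and 3 lower, 11 and 2 of them same-side. *Cyp18a1* was among the 3. Over all tested probe sets, 3.87% were called higher and 4.64% lower. The list median was 0.48 log2 units, against 0.03 for all tested probe sets. The study chose both lists in part with animals of these stages, so they are not independent evidence of direction.

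**Figure D3:**
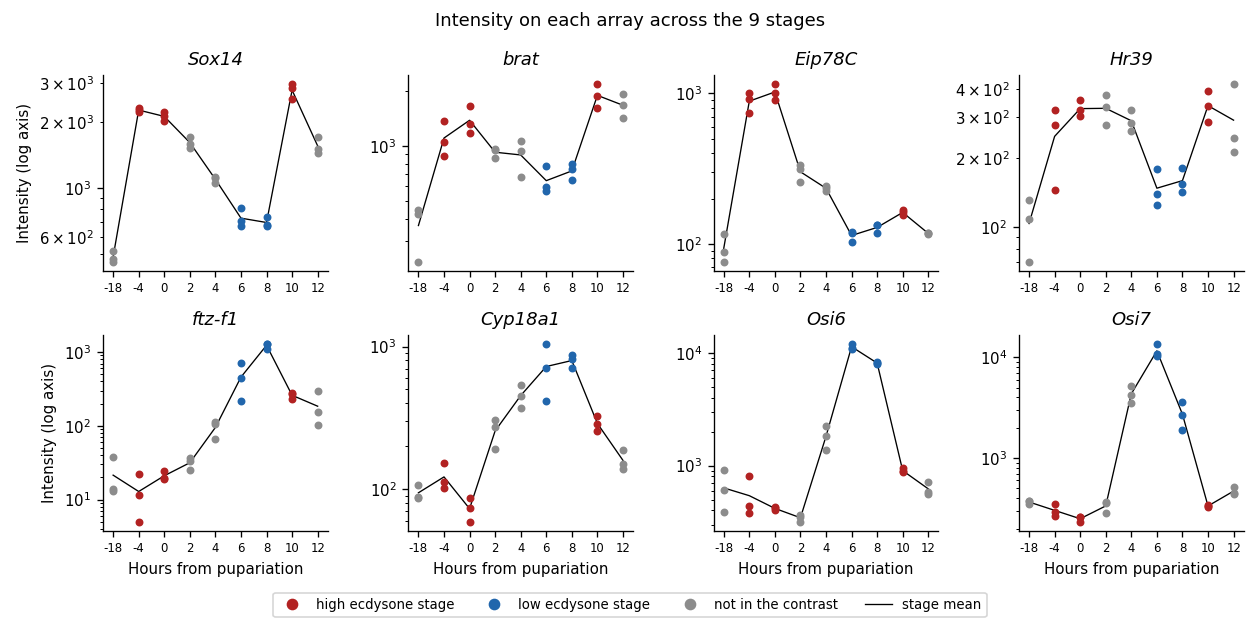
Intensity on a log axis is plotted for each array (points) and as the stage mean (line) across the 9 stages in hours from pupariation, for 6 regulators and 2 Osiris genes. Red marks high stages, blue low stages and gray stages outside the comparison. *Sox14* peaks at -4 h and at 10 h, *Eip78C* has 155 to 168 units at 10 h against 103 to 134 in the low stages, and *Osi6* and *Osi7* peak at 6 h.

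Tanning genes included the largest increase among called, same-side probe sets with 1 gene symbol. *e* (*ebony*), which encodes an enzyme that couples dopamine to beta-alanine for tanning, had 3839, 3590.2 and 2151 units at -4 h, 8132, 7543 and 8207 at 0 h and 682, 714 and 769 at 10 h, against 139, 236 and 153 at 6 h and 113, 107 and 124 at 8 h. The high stages were ordered 0 h, -4 h and 10 h, and even the lowest was well above the low group. The difference was 18.6-fold (log2 4.22, SE 0.15, adjusted p 4.62e-16). *Pu* and *Dhpr*, enzymes that make and recycle the pterin cofactor of aromatic amino acid hydroxylases, were 10.8-fold and 4.54-fold higher without overlap. *Pu* had 121 to 152 units at 10 h, against 63.9 to 108 in the low stages. *Ddc*, dopa decarboxylase, ranged from 723 to 5956 units (median 5039) on the high arrays, against 276 to 913 (median 526) on the low arrays. Its 10 h arrays, with 907, 896 and 723 units, overlapped the 8 h arrays, with 913, 802 and 757 units. *t* (*tan*), whose enzyme reverses the ebony reaction, ran the other way, with 119 to 421 units (median 158) in the high group against 402 to 1017 (median 791) in the low group, 3.37-fold lower (adjusted p 1.87e-09). Shares over all tested probe sets were 3.87% called higher and 4.64% lower, with 1.88% and 3.21% also same-side. Of 11 measured tanning genes, 5 were higher and 1 lower, and 4 and 1 of these were same-side. The other 2 higher were *ple*, tyrosine hydroxylase, which was not same-side, and *PPO2*, a phenoloxidase of crystal cells.

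Cuticle genes divided by pulse. *Pcp*, a pupal cuticle protein gene, had 4198, 4965 and 6158 units at -4 h, 1241, 2573 and 2322 at 0 h and 10186, 9516 and 10505 at 10 h, against 226, 253 and 271 at 6 h and 1774, 1121 and 1464 at 8 h. The lowest 0 h array lay among the 8 h arrays, and the difference was 7.75-fold (log2 2.95, SE 0.19). *Cpr49Ac*, a chitin-binding cuticle protein gene, had 4605 to 14971 units (median 13657) against 1154 to 1689 (median 1392), without overlap. *Edg78E*, another prepupal cuticle gene, was called 5.40-fold lower but was not same-side, because its high arrays lay on both sides of the low stages. The late larval arrays had 92.2 to 153 units and the 10 h arrays 6915 to 8401, against 741 to 1277 on the 6 h arrays and 6397 to 7407 on those of 8 h. Of 9 prepupal and pupal cuticle genes, 1 was higher and same-side, 3 were called lower and none of these was same-side, and 7 were higher at 10 h than in the late larval pulse. Of 23 genes of chitin synthesis and remodelling, 7 were called lower and none of these was same-side, among them the deacetylase gene *verm* at 3.06-fold, and *Cht2*, a chitinase gene, was the 1 called higher, a call lost without the first 10 h array. Of 56 measured Cpr genes, a family of chitin-binding cuticle proteins added after values had been seen, 5 were higher and 4 lower, 3 and 1 of them same-side. Over all tested probe sets, 3.87% were called higher and 4.64% lower. At 10 h, 18 Cpr genes were higher and 5 lower than in the late larval pulse, against 6.18% and 7.35% of all tested. Without the first -4 h array, 3 Cpr genes were called higher.

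**Figure D4:**
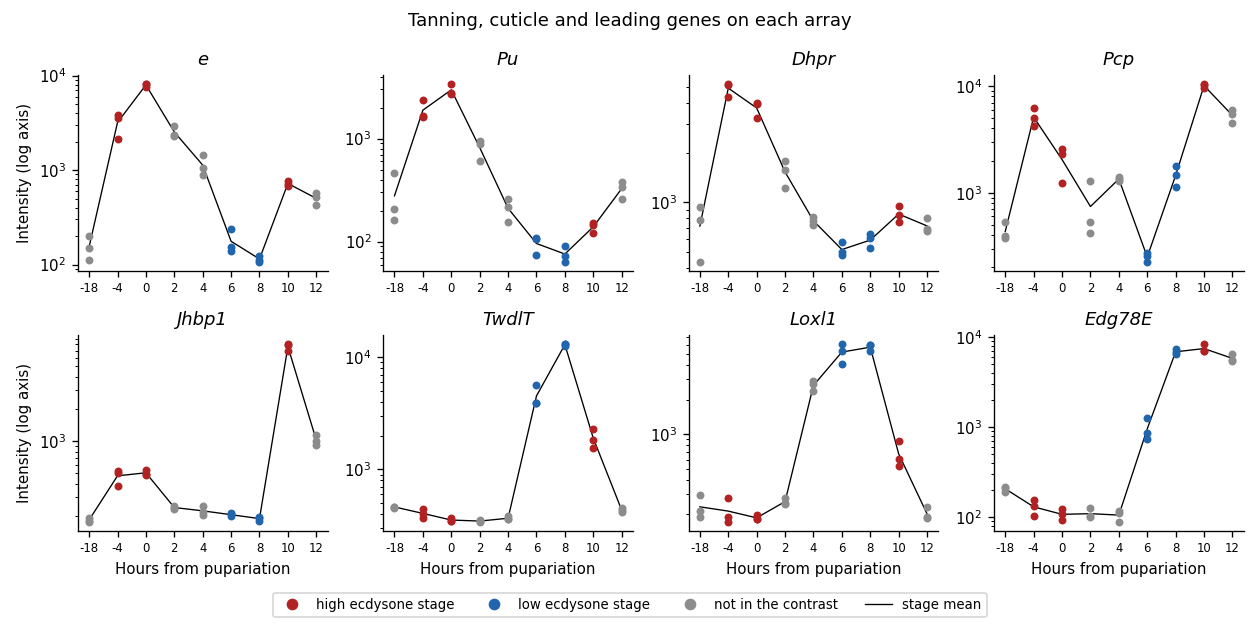
Intensity on a log axis is plotted for each array (points) and as the stage mean (line) across the 9 stages in hours from pupariation. Red marks high stages, blue low stages and gray stages outside the comparison. *e*, *Pu* and *Dhpr* are highest in the late larval pulse, *Jhbp1* at 10 h, and *Edg78E* has 92.2 to 153 units in the late larval pulse and 6915 to 8401 at 10 h.

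Other large increases also differed in the pulse that carried them. *CG2444* had 9384 to 11017 units on the late larval arrays and 3224, 3763 and 4353 at 10 h, against 538 to 607 on the low arrays, a 12.8-fold difference. It was again high at 12 h, with 6034 ± 916 units (SD, n = 3). *CG14664* had 7504 to 10558 units on the late larval arrays, but 194, 178 and 219 at 10 h against 135 to 173 on the low arrays, so nearly all of its 16-fold pooled difference came from the late larval pulse. The reverse held for *Jhbp1*, a gene of the juvenile hormone binding protein family, with 385 to 539.9 units on the late larval arrays and 7896, 6891 and 8123 at 10 h, against 180.2 to 212 on the low arrays. It was 3.96 log2 units higher at 10 h than in the late larval pulse (adjusted p 3.5e-19). *CG13722* was also higher at 10 h, by 1.89 log2 units, with 4997 to 6062 units there.

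Several of the leading increases were highest before the late larval pulse. *Ag5r2* averaged 13981 ± 324 units at -18 h (SD, n = 3), with 289 to 5391 on the high arrays against 209 to 285 on the low arrays. *Cyp9f2*, a cytochrome P450 gene, averaged 4607 ± 737 at -18 h, with 292 to 3543 on the high arrays against 212 to 290.3 on the low arrays. *Muc26B*, *CG14302*, *CG6933* and *Peritrophin-15a* likewise had their highest stage mean at -18 h, and each was called lower at 10 h than in the late larval pulse, with differences between -1.90 and -2.86 log2 units. The last encodes a protein of the gut lining.

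Osiris genes were among the largest decreases. *Osi7*, of the Osiris family of insect membrane proteins, had 354, 267 and 289 units at -4 h, 259, 234 and 259 at 0 h and 331, 334 and 341 at 10 h, against 13629, 10275 and 10863 at 6 h and 3588, 2682 and 1908 at 8 h. *Osi6* had 808, 436 and 378 units at -4 h, 421, 429 and 402 at 0 h and 891, 869 and 945 at 10 h, against 12010.0, 11128 and 10781 at 6 h and 8244, 8116 and 7945 at 8 h. For both, the highest high array was far below the lowest low array, and the differences were 18.8-fold and 16.6-fold (adjusted p 5.76e-18 and 3.53e-15). Of 23 measured Osiris genes, a family added after values had been seen, 12 were lower and none higher, 11 of the 12 same-side, against 4.64% of all probe sets called lower. Their median was -0.78.

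*CG9411* had the largest decrease, at least 27.8-fold, with 37.8 to 306 units (median 66.3) on the high arrays against 1858 to 3713 (median 2600.2) on the low arrays. Its highest high array was the first at -4 h, and 4 of the 9 lay under the floor. *Loxl1*, a lysyl oxidase gene, had 173 to 279 units on the late larval arrays and 532, 879 and 611 at 10 h, against 4094 to 6144 on the low arrays, 18.4-fold lower. *TwdlT*, of the Tweedle family of cuticle proteins, had 347 to 444 units on the late larval arrays and 2298, 1845 and 1561 at 10 h, against 5697, 3939 and 3940.0 at 6 h and 13147, 13193 and 12563 at 8 h. Of 19 Tweedle genes, added in the same way, 4 were lower, 2 of them same-side, against 4.64% of all probe sets called lower. *CG4115* and *CG3355* were 21-fold and 10.9-fold lower in the pool. Their 10 h levels were under both low stages but 4.32 and 3.68 log2 units above the late larval stages. The first 6 h array, without which 341 rather than 412 probe sets were called lower and same-side, had the highest level in the low group for *CG9411*, *Osi6*, *Osi7* and *Loxl1*.

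Salivary gland genes moved in opposite directions. For scale, 3.87% of all tested probe sets were called higher and 4.64% lower. Of 8 measured glue genes, whose proteins fix the puparium to its substrate, 6 were called higher (median 2.44 log2 units), but only *Sgs5* was same-side, with 348 to 392 units at 10 h against 322 to 366 on the low arrays. All 6 were lower at 10 h than in the late larval pulse. Of 9 measured L71 genes, a late gene cluster that encodes small secreted peptides, 8 were lower and 1 higher, *Eig71Ee* at 3.90-fold. *Eig71Ed* had 416, 624 and 463 units at -4 h, 5463, 4595 and 3854 at 0 h and 10442, 9424 and 9619 at 10 h, against 12571 to 13313 units on the low arrays. All high arrays lay under the low arrays, those of -4 h farthest. Of these 8 genes, 5 were same-side and all 8 were higher at 10 h than in the late larval pulse.

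Larval gut proteases made up a large block of increases. Over all tested probe sets the share called higher was 3.87%, and 1.88% were also same-side. Of 23 measured Jonah and trypsin genes, 19 were higher and none lower, with a median of 2.27 log2 units. The 19 were all lower at 10 h than in the late larval pulse, and 9 were same-side. *Jon65Aiii* had 465 to 11212 units (median 6909) on the high arrays against 439.8 to 533 (median 501) on the low arrays, so the 10 h arrays lay within the low group. At -18 h the median of the list was 4.61 log2 units above the low stages. Of 12 muscle genes, 6 were higher and all 6 were same-side, with a list median of 0.60. *Mlc1*, a myosin light chain gene, had 857, 835 and 1393 units at -4 h, 552, 669 and 627 at 0 h and 529, 531 and 538 at 10 h, against 199 to 206 on the 6 h arrays and 290.2 to 308 on those of 8 h. The groups did not overlap, but the -18 h mean of 7417 ± 245 units (SD, n = 3) exceeded all of them.

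Among stress and turnover genes, *Hsp27*, a small heat shock gene, had 6132 to 7281 units on the late larval arrays and 4962, 5385 and 5329.6 at 10 h, against 1978 to 2901 on the low arrays (2.56-fold, log2 1.35, SE 0.09). *Hsp26* was 2.33-fold higher. Both were also high at 2 h and 12 h and low at -18 h, where *Hsp27* had 986 ± 233 units. Of 11 measured heat shock and chaperone genes, 3 were higher, these 2 and *l(2)efl* (log2 1.74), and 7 were not called. *Hsf* was the 1 called lower (log2 -0.68), and the list median was 0.13. Of the called genes, 2 higher and 1 lower were same-side. *Atg7*, which encodes an enzyme of autophagosome formation, had 379.6 to 975 units on the high arrays against 188 to 253 on the low arrays, 2.83-fold higher without overlap. It was the single called gene of 20 autophagy genes, while 8.51% of all tested probe sets were called either way. Of 10 cell death genes, *Dark*, the Apaf-1 homolog, was 1.80-fold higher and *Buffy*, of the Bcl-2 family, 1.64-fold higher, a call lost without the 10 h stage. No gene of 26 proteasome genes was called by limma, although 20 had an unadjusted p under 0.05, and 24 of the 26 were lower at 10 h than in the late larval pulse. No ribosomal protein gene of 37 was called, and 2 had an unadjusted p under 0.05.

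Decreases in immune, metabolic and morphogenetic genes were few in number. Of all tested probe sets, 4.64% were called lower and 8.51% either way. The share called lower was above 4.64% in the Toll and Imd, lipid and disc eversion lists, in the lipid list through 1 gene. *spz*, the ligand of the Toll receptor, had 73.1 to 91.9 units on the -4 h arrays and 187 to 244 on the 6 others of the high group, against 271 to 449.6 on the low arrays, 2.19-fold lower without overlap. *Tl*, the receptor, was 2.04-fold lower with overlapping arrays, and these were the 2 called same-side among 15 Toll and Imd genes. *FASN1*, a fatty acid synthase gene, had 111 to 348 units (median 249.8) against 479.6 to 1568 (median 964), 3.71-fold lower and the only called gene of 14 in lipid synthesis and storage. *Sb*, a transmembrane serine protease gene needed for leg and wing elongation, had 113 to 204 units (median 126) against 234 to 524 (median 344), 2.58-fold lower. *if*, an integrin gene, was 2.08-fold lower, and no other of the 14 genes of disc eversion was called. Limma called no gene of 10 nervous system genes, 13 cell cycle genes, 10 genes of the Wnt, Notch, Hedgehog and Dpp pathways or 3 fat body protein genes, of which 1, 6, 0 and 3 had an unadjusted p under 0.05.

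Smaller lists each held few called genes by number. In each list of this paragraph their share was above the 8.51% of all tested probe sets called either way. *ImpL1*, an ecdysone-inducible gene of imaginal discs, had 793, 185 and 211 units at -4 h, 416, 399 and 334 at 0 h and 878, 855 and 765 at 10 h, against 9879, 8317 and 9774 at 6 h and 2357, 2034 and 2065 at 8 h. It peaked at 6 h, and its decrease was 9.64-fold. Of 5 measured IMP genes, 2 were called lower and 1 higher, and *ImpL1* was the only same-side call. *Drs*, the antifungal peptide drosomycin, had 3874 to 9333 units (median 6829) on the high arrays against 10226 to 11847 (median 11315) on the low arrays. This 1.68-fold decrease lay within a course that averaged 253 ± 35.8 units at -18 h (SD, n = 3) and was called higher at 10 h than in the late larval pulse, by 0.65 log2 units. The call was lost without the -4 h stage. Of 8 antimicrobial peptide genes, 2 were lower and 1 of them same-side. *PPO2*, the single called gene of 7 hemocyte markers, had 444 to 721 units (median 557) on the high arrays against 213 to 316 (median 256) on the low arrays, 2.14-fold higher without overlap and with no called difference between the pulses. *shd*, whose enzyme converts ecdysone to 20E, was 2.03-fold higher and the single called gene of 5 in ecdysteroid synthesis. Its 10 h arrays, with 75.3, 80.8 and 81.5 units, lay among the low arrays, which had 64.2 to 89.2. Both collagen IV genes were lower and same-side, *vkg* at 1.61-fold and *Col4a1* at 1.52-fold, and both calls were lost without the first 6 h array. Of 8 glycolysis genes, 3 were lower and 2 of them same-side, and without the first 6 h array 1 was lower.

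**Figure D5:**
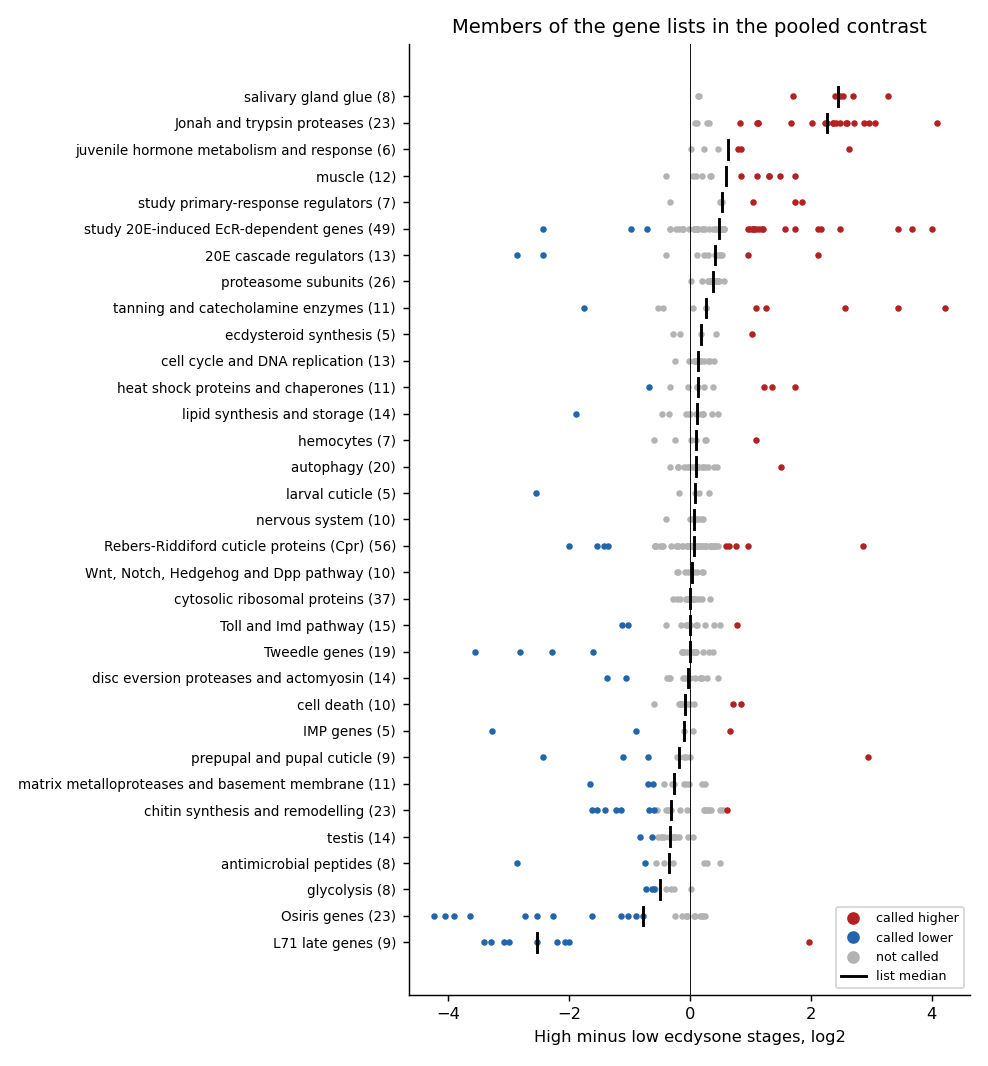
Each point is a member of a gene list, placed by its log2 difference between high and low stages, for the lists with at least 5 measured genes (number in parentheses). Red points were called higher, blue lower and gray not called, and black ticks are list medians. Glue genes and gut proteases have the highest medians, 2.44 and 2.27, and L71 genes the lowest, -2.54.

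The hormone classes rest on 5 stages. When the 5 stage means were taken as the units, 3 against 2, limma called 22 probe sets at the same limits. Of the 12854 tested, 704 had an unadjusted p under 0.05. With no differences, a fraction of 0.05 of the tests would be expected there, so this count alone is no evidence of change. Rearranging 3 against 2 stages can give no 2-sided p below 0.1, so smaller p-values rest on limma's model of the spread. Of the 22, only *Sox14* was higher (log2 1.73, SE 0.15, adjusted p 0.0801). The 21 lower included *CG9411*, *Osi6*, *Osi9*, *Osi15*, *CG6055*, *dyl* and *Srr*.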

How the data were processed

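Affymetrix *Drosophila* Genome Arrays, 27 in all, measured the RNA of staged whole animals. The authors normalized the arrays and computed 1 linear intensity per probe set and array with dChip 1.2. These deposited intensity values were used unchanged, apart from the floor of 60.26 (10th percentile) and log2. Of 13966 probe sets, 12443 carried 1 gene symbol. Their number, 3 independent replicates a stage per the study's methods, limits the precision. The study used SAM, in whose place limma 3.58.1 (R 4.3.3, lmFit and eBayes) was fitted with stage as the factor, over all 27 arrays (18 residual and 3.55 prior degrees of freedom). The fit was tested on simulated data. Figures were drawn with matplotlib 3.10.9. A list gene was represented by its brightest tested probe set that carried its symbol alone, and list members without one were left out. Members and lists were chosen with earlier results of these data known. Named genes were the 15 largest increases and decreases among called, same-side, non-overlapping probe sets with 1 symbol, from each list at most 4 genes, by their adjusted p, and all measured members of the 2 regulator lists. Other genes named here, such as those of the widest gaps, the fold limit, the stage-mean fit and the 3 added families, and *ple*, *Cht2* and *Eig71Ee*, were chosen after their values were seen. Alternatives were other normalization, floors, filters, array weights, units and limits, a replicate block, and leaving out arrays or stages. No genome coordinates or sequences were used.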

Additional observations from a re-analysis of the deposited data

Results flagged for a closer look

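Of 156 named genes, 89 differed between 10 h and the late larval stages in limma's test, and for 10 of these the pulses lay on opposite sides of the low stages, each by at least 1.5-fold. For *Sgs7*, *PGRP-SB2* and *ImpE3* the level was above the low stages in the late larval pulse and below them at 10 h, and 10 h minus late larval was -4.86, -3.10 and -2.06 log2 units. The other 7 genes were below the low stages in the late larval pulse and above them at 10 h. The difference was 3.23 for *Lcp65Ac*, 4.32 for *Ccp84Ag*, 5.34 for *Drsl6*, 5.98 for *Edg78E*, 6.05 for *Edg84A*, 6.36 for *Eig71Ek* and 6.54 for *Lcp65Ad*. For these 10 genes the pooled difference averaged opposite changes.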

How the results depend on the processing

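Between 5 stages, hormone level and age cannot be told apart. With stage means as the units, 1 probe set was called higher and 21 lower, and these 1 and 21 were also same-side. At adjusted p under 0.05 and 2-fold, the pooled comparison called 246 higher and 308 lower (126 and 217 same-side), 10 h minus the late larval stages 439 and 464, 8 h minus 6 h 241 and 107, 0 h minus -4 h 150 and 132, and the stages after a high stage minus the others 256 and 205. Array weights gave 327 lower for 8 h minus 6 h. Without 10 h, 715 higher and 735 lower were same-side, and without 8 h, 387 higher were. The contrast and the number of stages that had to lie on 1 side both change, and the cause was not tested. Without stage 0 h the log2 difference was 0.0996 for *Ccp84Ag*, 0.589 for *Lcp65Ac* and -0.485 for *PGRP-SB2*. Without stage 8 h it was 1.10 for *Edg84A*, 0.981 for *Ccp84Ag*, 1.27 for *Lcp65Ac* and -0.272 for *PGRP-SB2*. The cause of these changes of sign was not tested. Leaving out 1 array gave 481 to 521 higher and 530 to 718 lower, and 229 to 250 and 341 to 512 same-side. The ranges were 753 to 819 and 864 to 1041 for 10 h minus the late larval stages, 403 to 530 and 162 to 275 for 8 h minus 6 h, and 603 to 1025 and 439 to 518 for the stages after a high stage. For 0 h minus -4 h, with 592 higher and 434 lower in all arrays, leaving out the first -4 h array gave 256 higher, the third -4 h array 1059 higher and 1097 lower, the second -4 h array 1229 lower, the first 0 h array 290 higher and 270 lower, and the second 0 h array 353 higher. Of 90 named genes called in the pooled comparison, *Pglym78*, *Col4a1*, *ocn*, *vkg*, *ImpE3* and *Hsf* lost the call without at least 1 single array. Of the 90 calls, 85 were lost with stage means as the units, 17 at the stricter limits, and 8, 6, 2, 5 and 4 without stage -4 h, 0 h, 10 h, 6 h and 8 h. Replicate numbers were not shown to pair the arrays over the 5 stages. Same-numbered arrays of different stages had a mean correlation of deviations of 0.067, and 13 of 30 were over 0.1. Different-numbered arrays had a mean of -0.030, and 18 of 60 were over 0.1. Among 6 h, 8 h and 10 h, same-numbered arrays ranged from -0.110 to 0.571 and different-numbered ones from -0.478 to 0.389. With the replicate number as a block, 497 higher and 598 lower were called (242 and 412 same-side), 799 and 951 between the pulses, 488 and 202 for 8 h minus 6 h, 673 and 424 for 0 h minus -4 h, and 785 and 449 for the stages after a high stage, and no named call was lost.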
